A study of Mus musculus with 52 samples.

Results

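The comparison described here set gastrocnemius muscle after 7 d of reloading against gastrocnemius at the end of hindlimb unloading, in aged mice that drank metformin. Its members were all libraries whose titles name these conditions: 4 of unloaded mice (HU_M) and 4 of reloaded mice (RL7_M), so 8 of the 52 libraries of the series. All 8 came from male C57BL/6 mice aged 22 to 24 months, and metformin was dissolved in the drinking water of both groups. Any difference in how long the 2 groups drank it cannot be told apart from reloading. Total RNA was depleted of ribosomal RNA and sequenced as stranded libraries, and the comparison was made across 16668 genes. Set beside it are the groups on plain water (HU_W and RL7_W), on leucine (HU_L and RL7_L), on both agents (HU_ML and RL7_ML), after 14 d of reloading on metformin (RL14_M), and ambulatory mice on water (AMB_W), all of the same strain, sex and age with 4 libraries each. The labels used here name neither a metformin dose nor a length of unloading. Each library was taken as 1 mouse. The labels name no animals or harvest batches, so the p-values measure the spread between libraries, and anything shared by the libraries of 1 group cannot be told apart from reloading.

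Hindlimb unloading lifts the hind legs off the ground, and the calf muscles then waste. Wasting muscle is known for raised transcription of ubiquitin ligases under FoxO factors and for glucocorticoid signalling, while a return of load is known to restart protein synthesis and to remodel matrix and vessels. Metformin is a biguanide diabetes drug that lowers mitochondrial complex I activity and activates AMP-activated protein kinase (AMPK). The 8 libraries carried the markers of a fast hindlimb muscle. Over them the skeletal actin gene Acta1 ranged from 4219 to 13208 CPM (counts scaled to the total of each library), the muscle creatine kinase gene Ckm from 6182 to 10529 CPM, and Myh4, the myosin of fast IIB fibres, from 39550 to 64255 CPM. In whole muscle, fewer cells of a type and less RNA per cell cannot be told apart.

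Several library-wide measures moved with the contrast. The 5.8S ribosomal RNA gene n-R5-8s1 stood at 10.9, 10.03, 10.4 and 12.3 CPM in HU_M and at 1.63, 0.658, 0.379 and 0.948 CPM in RL7_M. The share of counts from mitochondrial genes was 17.02%, 17.06%, 13.1% and 14.8% in HU_M and 7.92%, 9.22%, 8.44% and 5.53% in RL7_M. Neither measure overlapped between the 2 groups. On water, 5.8S was at 7.99 to 13.8 CPM in HU_W and 2.91 to 7.39 CPM in RL7_W. Alb, the liver gene for serum albumin, stayed at or under 0.254 CPM in HU_M and was at 16.7, 124, 0 and 3.61 CPM in RL7_M. The mean log2 CPM of 13 adipocyte markers was between 1.95 and 2.93 in 7 of the 8 libraries and reached 5.93 in RL7_M 4. The longest genes by exonic length (7060 bases or longer) gave 377 rising and 813 falling genes of 3330, against 613 and 325 of 3330 at 1959 to 3229 bases. Totals of the 8 libraries ran from 15901825 to 23236903 counts.

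**Figure D1:**
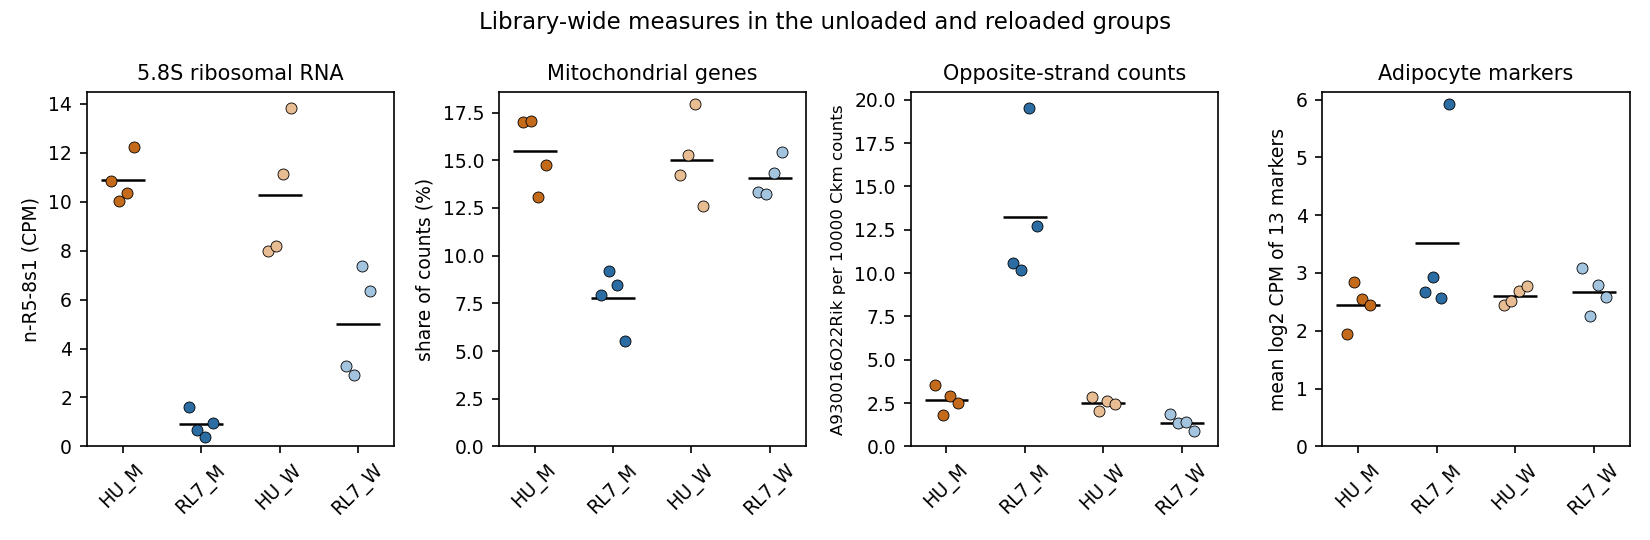
Each point is 1 library and each bar the mean of 4, for unloaded (HU) and 7 d reloaded (RL7) mice on metformin (M) or water (W). The panels show the 5.8S ribosomal RNA gene in CPM, the mitochondrial share of counts in percent, counts of A930016O22Rik per 10000 counts of Ckm, and the mean log2 CPM of 13 adipocyte markers; RL7_M lies apart from HU_M in the first 3 panels, and in the 4th RL7_M 4 stands at 5.93.

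Of the 16668 genes tested, 4930 (29.6%) differed between RL7_M and HU_M at an adjusted p under 0.05 in edgeR's quasi-likelihood test: 2570 (15.4%) rose and 2360 (14.2%) fell. The median change was 1.70-fold among rising genes and 1.57-fold among falling genes. Changes beyond 2-fold were seen in 764 rising and 501 falling genes, and beyond 4-fold in 141 and 78. The 4 and 4 libraries did not overlap for 4876 genes (29.3%), 2545 higher and 2331 lower in RL7_M. Genes ranked by size were chosen for having no overlap, so for them it adds no information. A set of 2573 calls (1184 rising, 1389 falling) held in each of the 8 fits that leave out 1 library. With n-R5-8s1 as a covariate 47 genes remained called (11 rising, 36 falling), and with the mitochondrial share as a covariate 1409 (648 rising, 761 falling). Since both measures separate the groups without overlap, their share in a gene's change and that of reloading cannot be told apart. Of the 4930 calls 95 changed sign with n-R5-8s1 as a covariate. Among 97 changed genes followed through each alternative, n-R5-8s1 itself included, 15 kept their call with that covariate, and 0 of the 97 changed sign. These 15 include Foxo1, Ddit4, Fkbp5, Arrdc2, Arrdc3, Ppp1r3c, Slc25a25, Pik3r1, Klf6, Cebpd and Dbp. The remaining ones are A930016O22Rik, Rabep2, A630019I02Rik and Ube2c, which lie opposite a far more abundant gene, as described below. The call was kept by 70 genes with the mitochondrial share as a covariate, by 91 with the adipocyte mean as a covariate, and by 90 without the libraries with Alb above 16 CPM, among them RL7_M 1 and RL7_M 2.

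The gene groups with the highest shares of changed members were glucocorticoid response genes (15 of 19 fell), mitochondrially encoded subunits (10 of 13 fell), glycolytic enzymes (12 of 17 rose), creatine genes (5 of 6 rose), fibrillar collagens (8 of 10 rose), basement membrane genes (11 of 16 rose) and circadian clock genes (7 rose and 7 fell of 19), beside adipocyte, fatty acid synthesis and red blood cell lists whose counts rest on single libraries and are taken up last. The figure of list shares sets each against the 15.4% of all genes that rose and the 14.2% that fell. Over all genes tested the median log2 fold change was 0.05. With n-R5-8s1 as a covariate, the lists described here that still held a called gene were the FoxO factors and ligases (1 fell), mTORC1 and amino acid sensing (1 fell), glucocorticoid response (5 fell), the further early response genes (1 fell, Klf6), the clock (1 rose), glycogen (1 fell), insulin signalling (1 fell) and the arrestin domain proteins (2 fell). The others, collagens, creatine genes and respiratory chain subunits among them, held 0.

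**Figure D2:**
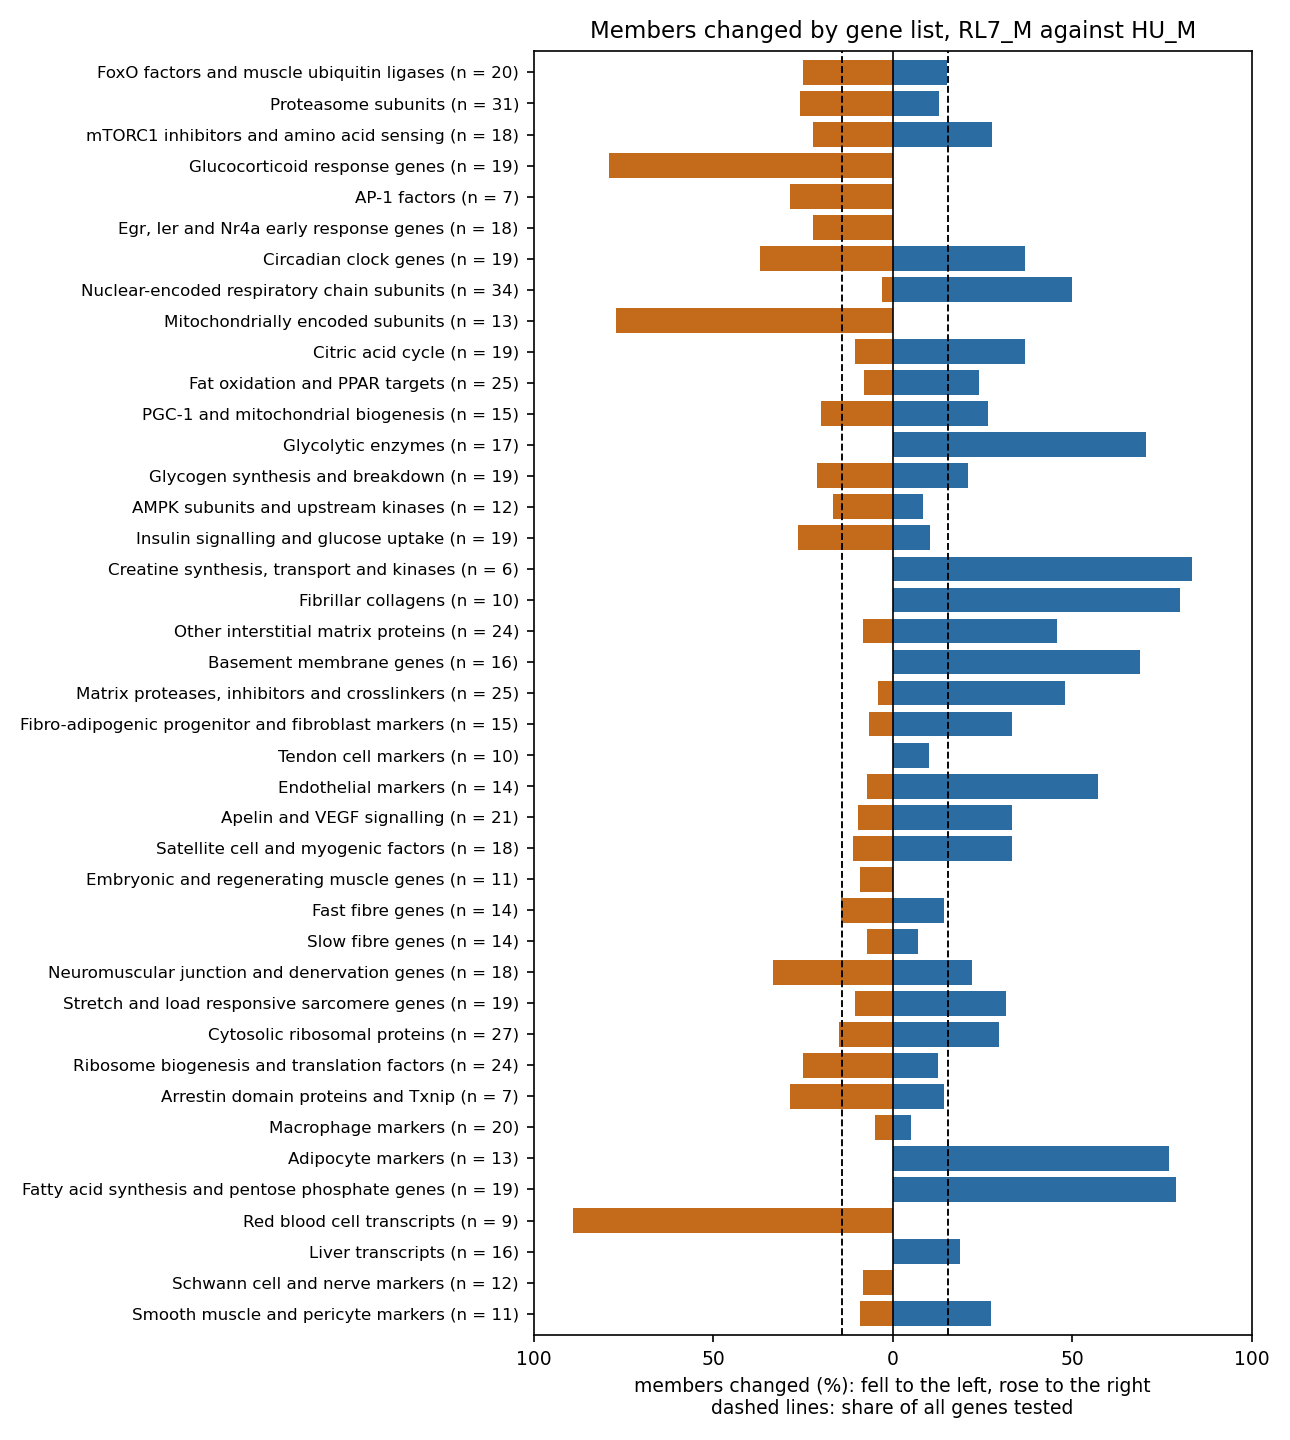
Bars give, for each gene list, the percentage of its tested members (n in the label) that rose (right, blue) or fell (left, orange) in RL7_M against HU_M at an adjusted p under 0.05, and dashed lines give the shares of all 16668 genes, 15.4% rising and 14.2% falling. Glucocorticoid response genes reach 15 of 19 on the falling side and fibrillar collagens 8 of 10 on the rising side, while slow fibre genes stay under both lines.

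The FoxO factors drive the ubiquitin ligases of muscle wasting. Foxo1 (ENSMUSG00000044167, chr3:52268336-52353221) stood at 189, 138, 222 and 143 CPM in HU_M and at 26.8, 30.3, 25.7 and 40.7 CPM in RL7_M. All reloaded libraries were below all unloaded ones, a 5.603-fold fall (log2 fold change -2.49 ± 0.21 SE, adjusted p = 5.16e-11), and the RL7_M mean of 30.9 ± 6.86 CPM (SD, n = 4) compares with 37.2 ± 2.84 CPM in AMB_W. Trim63 (ENSMUSG00000028834, chr4:134315120-134329629), which encodes the ligase MuRF1 that marks thick filament proteins for degradation, was at 368, 294, 724 and 289 CPM unloaded and 134, 139.8, 113 and 98.7 CPM reloaded. The groups did not overlap and HU_M 3 was the highest library; the fall was 3.45-fold (-1.79 ± 0.26 SE, adjusted p = 4.96e-06). Fbxo32 (ENSMUSG00000022358, chr15:58175879-58214932), the gene of the ligase atrogin-1, was at 614, 783, 1001 and 774 CPM in HU_M and 346, 449.8, 295 and 262 CPM in RL7_M. It also separated the groups and fell 2.35-fold (adjusted p = 0.000159) to a mean of 338 ± 82.02 CPM (SD, n = 4), with AMB_W at 535 ± 46.1 CPM. Cblb, a ligase that targets insulin receptor substrate 1, fell 2.01-fold (adjusted p = 8.36e-06), and Foxo3 fell 1.32-fold (adjusted p = 0.0162), a call that is lost without HU_M 3 (adjusted p = 0.0579). In the list of 20 FoxO factors and muscle ubiquitin ligases these 5 fell and 3 rose (Mul1, Trim55 and Foxo6), with a median log2 fold change of -0.21, and 1 rose without HU_M 3. Usp14, Traf6, Nedd4 and Fbxo30 were among the 12 members that did not pass the test.

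**Figure D3:**
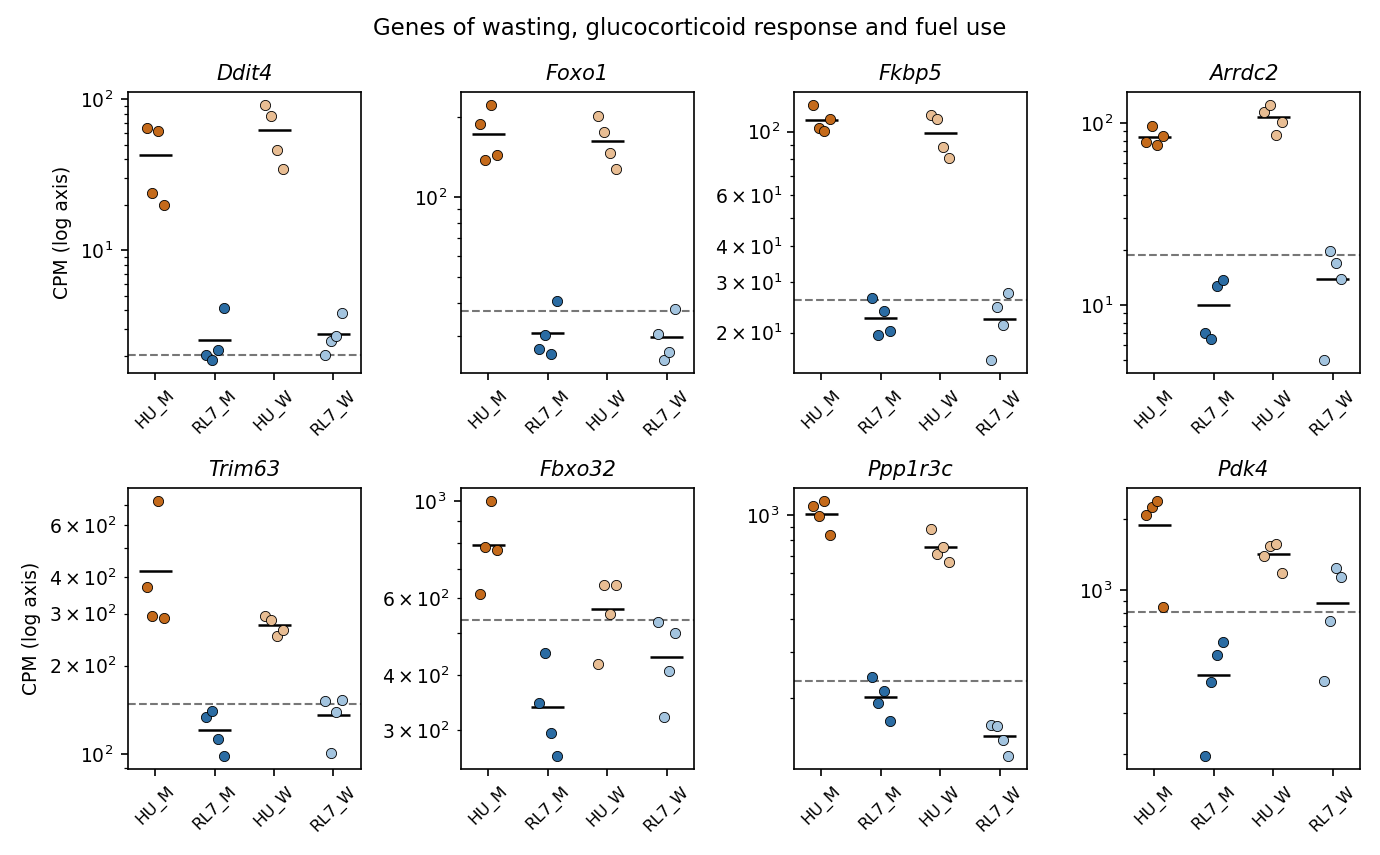
Each point is 1 library, bars are means of 4 and the dashed line is the AMB_W mean, on a log axis of CPM, for unloaded (HU) and 7 d reloaded (RL7) mice on metformin (M) or water (W). In all 8 genes the RL7_M libraries lie below the HU_M libraries, as they do for 14% of all genes tested. On water the groups overlap for Fbxo32 and Pdk4.

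The promoter of Trim63 is shown because the gene is a textbook FoxO target and both it and Foxo1 fell. The RefSeq promoter (GRCm38.p6, chr4:134314870-134315169, plus strand, 250 bases before to 50 after the start) held 1 match to the forkhead motif TGTTTAC, searched on both strands, and the match is in capitals:

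Trim63 promoter: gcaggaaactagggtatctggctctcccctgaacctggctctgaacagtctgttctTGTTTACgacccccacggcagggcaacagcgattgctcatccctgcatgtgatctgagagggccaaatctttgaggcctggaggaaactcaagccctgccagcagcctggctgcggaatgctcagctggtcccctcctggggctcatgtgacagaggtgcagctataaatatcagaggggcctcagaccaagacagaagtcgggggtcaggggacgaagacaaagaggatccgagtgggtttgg

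The same letters occurred in 3.65% of all 32851 RefSeq promoters, in 2.66% of those of the genes tested, in 2.73% of the promoters of genes that fell and in 2.33% of those of genes that rose. Of the 105 genes examined singly, 80 had a RefSeq promoter and 1 of them, Trim63, held the motif. A match describes the letters in this window and does not show a binding site.

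The proteasome carries out the degradation that these ligases start. Of 31 proteasome subunit genes 4 rose and 8 fell, with a median log2 fold change of -0.22. Psmb5, a catalytic subunit of the core, was at 11.3, 9.58, 8.08 and 11.1 CPM in HU_M and 19.8, 18.3, 19.7 and 18.9 CPM in RL7_M. The reloaded libraries were the higher ones without overlap (0.94 ± 0.20 SE, adjusted p = 0.000668). Psmc6, an ATPase of the regulatory cap, was at 98.2, 98.02, 95.05 and 131 CPM and 71.5, 66.01, 59.5 and 27.5 CPM. It fell 1.88-fold (adjusted p = 0.00384), with RL7_M 4 the lowest library. The falling count was 4 without either HU_M 4 or RL7_M 4 and 0 with the mitochondrial share as a covariate.

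Glucocorticoid response genes gave calls on the falling side. Of 19 tested, 15 fell, 0 rose and 4 did not pass (Klf15, Dusp1, Tat and Angptl4), and the median log2 fold change was -1.13; leaving out each library in turn gave 13 to 15 falling genes, and n-R5-8s1 as a covariate 5. Fkbp5 (ENSMUSG00000024222, chr17:28399094-28517527), which encodes a chaperone partner of the glucocorticoid receptor and is a standard readout of its activity, stood at 124, 103, 101 and 111 CPM in HU_M and at 26.4, 19.6, 23.8 and 20.3 CPM in RL7_M. The 2 groups were tight and far apart, a 4.87-fold fall (-2.28 ± 0.27 SE, adjusted p = 1.22e-07), and RL7_M averaged 22.5 ± 3.17 CPM against 25.9 ± 4.99 CPM in AMB_W. Cebpd, a transcription factor induced by glucocorticoids, was at 29.8, 21.2, 49.7 and 27.7 CPM and then 5.56, 4.502, 7.2 and 6.998 CPM. It fell 5.29-fold (adjusted p = 2.81e-05) with no overlap. Pik3r1, the regulatory subunit of phosphoinositide 3-kinase, fell from 136, 129, 112 and 229 CPM to 46.02, 44.97, 56.7 and 72.9 CPM. HU_M 4 was its highest library, and the change was 2.75-fold (adjusted p = 3.63e-08). Zbtb16, a zinc finger repressor, fell 2.19-fold, and the gene of the receptor itself, Nr3c1, fell by 0.71 on the log2 scale. Mt1 and Mt2, the metallothioneins, fell by 2.27 and 1.81. Sgk1, Tsc22d3 (the glucocorticoid-induced leucine zipper), Errfi1, Klf9, Cdkn1a, Per1 and Cebpb complete the list with Pdk4, which is given with fuel use.

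Growth inhibition and amino acid sensing through mTORC1, the kinase complex that promotes translation, held the gene with the largest fall among those ranked by size. Ddit4 (ENSMUSG00000020108, chr10:59949669-59951834), the gene of the mTORC1 inhibitor REDD1, stood at 64.1, 23.9, 61.9 and 20.1 CPM in HU_M and at 2.01, 1.87, 2.17 and 4.15 CPM in RL7_M. The unloaded libraries varied among themselves, yet the lowest of them was far above the highest reloaded one; the fall was 16.5-fold (-4.04 ± 0.49 SE, adjusted p = 2.67e-07), to 2.55 ± 1.08 CPM against 2.02 ± 0.711 CPM in AMB_W. Its paralog Ddit4l moved the other way, from 70.7, 94.2, 85.7 and 102 CPM to 164, 161, 113 and 157 CPM. That rise was 1.69-fold (adjusted p = 0.00479) without overlap. Over the 18 genes of the list 5 rose (Ddit4l, Akt1s1, Sesn2, Nprl3 and Castor2) and 4 fell (Ddit4, Rps6kb1, Sesn1 and Rheb); Mtor, Rptor, Deptor, Tsc1 and Tsc2 did not pass, and 3 rose without HU_M 3 or RL7_M 1.

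The arrestin domain proteins guide membrane receptors to ubiquitin ligases, and 2 of them were among the most reduced genes. Arrdc2 (ENSMUSG00000002910, chr8:70835129-70839720) was at 79.2, 96.2, 76.2 and 85.4 CPM in HU_M and 7.05, 6.53, 12.8 and 13.7 CPM in RL7_M. It fell 8.401-fold (-3.07 ± 0.38 SE, adjusted p = 3.5e-07), with AMB_W at 18.9 ± 3.24 CPM. Arrdc3 was at 177, 188, 355 and 172 CPM and 31.9, 45.7, 33.4 and 29.2 CPM. It fell 6.36-fold (adjusted p = 2.56e-08), and HU_M 3 was its highest library. Arrdc1, Arrdc4 and Txnip did not pass. By size alone the falling side was also led by Arhgap26, a GTPase-activating protein (-2.60 ± 0.33 in log2, SE), Depp1, a FoxO target (-2.45 ± 0.46), and Slc25a25, an ATP-Mg carrier of mitochondria. Slc25a25 stood at 91.9, 63.8, 84.99 and 58.97 CPM in HU_M and 12.3, 12.7, 31.8 and 13.2 CPM in RL7_M. It fell 4.28-fold (adjusted p = 2.25e-05), RL7_M 3 being the highest of the reloaded libraries. Trp53inp1, a stress-induced autophagy gene, fell 2.52-fold (adjusted p = 2.67e-07).

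Immediate early genes respond within minutes to contraction and to handling. Jun was at 147, 136, 260.2 and 139 CPM in HU_M and 72.2, 89.02, 88.4 and 74.05 CPM in RL7_M. It fell 2.11-fold (adjusted p = 2.99e-05) without overlap, HU_M 3 standing highest. Fos was at 26.3, 13.1, 24.6 and 7.46 CPM and 3.16, 3.996, 33.8 and 9.66 CPM. Its groups overlapped and it did not pass (log2 fold change -0.50, adjusted p = 0.542), but without RL7_M 3, its highest reloaded library, the log2 fold change was -1.69 (adjusted p = 0.0331). Over all genes tested 29.6% were called, 15.4% rising and 14.2% falling. Of 7 AP-1 factors 2 fell and 0 rose. A list of 18 further early response genes, with the Egr, Ier and Nr4a families and others, gave 4 falling and 0 rising. Klf6 fell 2.36-fold (adjusted p = 3.5e-07), joined by Zfp36, Maff and, from the families named, Nr4a3. The last count was 2 without HU_M 3, RL7_M 1 or RL7_M 2 in turn, and the AP-1 count ran from 1 to 3 without 1 library.

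Circadian clock genes changed in both directions, 7 up and 7 down of 19. Dbp (ENSMUSG00000059824, chr7:45705088-45710203), an output transcription factor of the clock, was at 27.5, 21.8, 14.1 and 28.02 CPM in HU_M and 91.6, 73.7, 73.3 and 80.6 CPM in RL7_M. It rose 3.49-fold (1.80 ± 0.21 SE, adjusted p = 5.14e-08), with AMB_W at 59.2 ± 4.38 CPM. The repressor Nr1d1 (REV-ERB alpha) was at 88.2, 68.1, 66.2 and 144 CPM and 217, 238, 183 and 236 CPM. It rose 2.38-fold (adjusted p = 4.96e-06), HU_M 4 being the highest unloaded library, and Bhlhe40 rose 1.996-fold (adjusted p = 0.000136). Nfil3, which opposes Dbp at shared sites, was at 22.8, 14.7, 34.7 and 11.5 CPM and 5.51, 6.32, 6.33 and 7.49 CPM. It fell 3.26-fold (adjusted p = 4.67e-05), and the core activators Arntl and Clock fell by 0.97 and 0.54 on the log2 scale. Per2, Cry1, Npas2, Nr1d2 and Hlf did not pass. The labels give no hour of harvest, so time of day and reloading cannot be told apart for these genes.

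Glycolytic enzymes break glucose down to pyruvate and lactate. Of 17 tested 12 rose and 0 fell, the median log2 fold change was 0.66, and each fit without 1 library gave 11 or 12; with the mitochondrial share as a covariate 5 rose, and with n-R5-8s1 0. Pgam2, the muscle phosphoglycerate mutase, stood at 362, 328, 249 and 218 CPM in HU_M and at 665, 567, 634 and 567 CPM in RL7_M. All reloaded libraries were higher, by 2.103-fold on the means (1.07 ± 0.18 SE, adjusted p = 3.89e-05), and AMB_W was at 424 ± 42.1 CPM. Eno3, the muscle enolase, was at 1351, 1413, 1179.7 and 876 CPM and 2280.2, 2331, 2387 and 1922 CPM. It rose 1.85-fold (adjusted p = 0.000206), and the more widely expressed Eno1 rose 2.53-fold (adjusted p = 5.44e-05). Tpi1, Ldha, Gapdh, Pgk1, Gpi1, Aldoa, Pfkm, Gpd1 and Pfkfb3 also rose, while Hk1, Hk2, Pkm, Ldhb and Pfkfb1 did not pass.

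Glycogen genes gave 4 up and 4 down of 19, not far from the 15.4% rising and 14.2% falling among all genes. Ppp1r3c (ENSMUSG00000067279, chr19:36731731-36736653), a scaffold that brings protein phosphatase 1 to glycogen and promotes its synthesis, was at 1079.6, 994, 1132 and 840.3 CPM in HU_M and 241, 192, 214 and 164 CPM in RL7_M. It fell 4.99-fold (-2.32 ± 0.24 SE, adjusted p = 8.41e-09), to 203 ± 32.8 CPM against 232 ± 53.3 CPM in AMB_W. Glycogen synthase, Gys1, was at 266, 232, 173 and 227 CPM and 288, 342, 361 and 350.0 CPM. It rose 1.49-fold (adjusted p = 0.00789). The branching enzyme Gbe1 fell 1.805-fold (adjusted p = 0.000649), and Pygm, the phosphorylase that breaks glycogen down, rose by 0.54 on the log2 scale.

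Glucose uptake and insulin signalling gave 2 rising and 5 falling genes of 19, with 3 falling without HU_M 4 or RL7_M 4. Slc2a4, the insulin-responsive transporter GLUT4, was at 125, 104, 87.99 and 105 CPM in HU_M and 194, 181, 199.8 and 168 CPM in RL7_M. It rose 1.76-fold (adjusted p = 0.00832). Tbc1d1, a brake on GLUT4 traffic that is phosphorylated by AMPK, fell 2.63-fold (adjusted p = 0.000133). Insr, Irs2, Akt1, Akt2, Igf1 and Igf1r did not pass. For AMPK, the kinase associated with metformin, the catalytic subunit Prkaa1 was at 16.4, 19.3, 15.8 and 16.96 CPM in HU_M and 16.7, 17.3, 14.5 and 17.7 CPM in RL7_M. These groups overlapped and no change was detected (adjusted p = 0.747); Prkaa2, the main catalytic subunit of muscle, averaged 469.6 ± 42 and 431 ± 100.03 CPM (SD, n = 4 each; adjusted p = 0.469), while without the libraries with Alb above 16 CPM its log2 fold change was -0.40 (adjusted p = 0.0302). Of 12 AMPK subunits and upstream kinases 1 rose (Stk11) and 2 fell (Map3k7 and Cab39, the latter 1.57-fold, adjusted p = 0.000338). That share is near the 29.6% called over all genes. The genes of the AMPK subunits are among the 9 that did not pass.

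The respiratory chain is built from subunits of the nuclear and the mitochondrial genome. Of 34 nuclear-encoded respiratory chain subunits 17 rose, 1 fell and 16 did not pass (median log2 fold change 0.35), and of 13 mitochondrially encoded subunits 10 fell and 0 rose (median -1.41). Uqcrc1, a core subunit of complex III, was at 149.7, 153, 103 and 103 CPM in HU_M and 234, 230.0, 274 and 264 CPM in RL7_M. It rose 1.97-fold (adjusted p = 0.000299) without overlap. Cyc1, the cytochrome c1 gene, rose 2.74-fold (adjusted p = 0.000509), and Cox6c alone fell, by 1.88-fold (adjusted p = 0.00846). mt-Nd2, a complex I subunit encoded by mitochondrial DNA, was at 23659, 24410.0, 17565 and 22191 CPM and 7354, 7399, 6638 and 3366 CPM. It fell 3.55-fold (adjusted p = 7.26e-06), with RL7_M 4 the lowest; the RL14_M mean was 26718 ± 6499 CPM and the AMB_W mean 20543 ± 2079 CPM. mt-Cytb fell 2.85-fold (adjusted p = 1.42e-05) and mt-Nd5 3.27-fold (adjusted p = 2.17e-05). On water the 13 mitochondrially encoded genes had a median log2 fold change of -0.38, and 1 fell. Between metformin and water 7 of them differed at an unadjusted p under 0.05 in the interaction test, and 0 at an adjusted p under 0.05. On leucine mt-Nd2 changed by -1.88 in log2 (adjusted p = 3.63e-06). The nuclear count was 10 rising without HU_M 3 or without HU_M 4 and 9 with the mitochondrial share as a covariate, and the mitochondrial genes follow the mitochondrial share of counts given above, which is the sum of the same kind of count.

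In the citric acid cycle 7 of 19 genes rose and 2 fell. Citrate synthase, Cs, was at 259.6, 262, 199.5 and 194 CPM in HU_M and 392, 389, 438 and 379.9 CPM in RL7_M. It rose 1.75-fold (adjusted p = 0.000314). Without HU_M 3, HU_M 4 or RL7_M 3 the list gave 2 rising genes. Of 25 genes of fat oxidation and PPAR targets 6 rose and 2 fell, a share near the 29.6% called over all genes, and 2 rose without HU_M 3. The 2 falling members are both raised by fasting: Pdk4, the kinase that shuts pyruvate dehydrogenase, was at 2088, 2255, 2402 and 849.8 CPM in HU_M and 196, 403, 530.3 and 602 CPM in RL7_M. It fell 4.39-fold (adjusted p = 0.000378), with HU_M 4 the lowest unloaded library and still above the reloaded ones. Ucp3, an uncoupling protein of muscle, was at 385, 325, 359.9 and 120.0 CPM and 65, 90.5, 83.97 and 71.7 CPM. It fell 3.82-fold (adjusted p = 4.21e-05). Cpt1b, which imports fatty acids into mitochondria, rose 2.05-fold (adjusted p = 0.00423).

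The coactivators of mitochondrial biogenesis differed in direction. Ppargc1a, the gene of PGC-1 alpha, was at 91.1, 88.96, 103 and 71.4 CPM in HU_M and 50.4, 58.9, 50.3 and 28.6 CPM in RL7_M. It fell 1.88-fold (adjusted p = 0.0157), a call lost without RL7_M 4 (adjusted p = 0.072). Ppargc1b was at 7.45, 8.17, 3.05 and 10.7 CPM and 19.5, 17.5, 19.7 and 21.7 CPM. It rose 2.66-fold (adjusted p = 8.18e-05), and the nuclear receptor Esrra, a partner of both, rose 2.15-fold (adjusted p = 0.00523). Tfam, Nrf1, Polrmt and 5 others of the 15 did not pass, and 4 rose and 3 fell in all; without RL7_M 4 the falling count was 1.

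Creatine handling buffers ATP in working muscle, and 5 of its 6 genes rose (median log2 fold change 0.99), 3 without HU_M 4 and 2 with the mitochondrial share as a covariate. Gamt (ENSMUSG00000020150, chr10:80258151-80261012), the last enzyme of creatine synthesis, was at 1.44, 2.11, 1.98 and 1.55 CPM in HU_M and 7.29, 9.31, 9.04 and 5.46 CPM in RL7_M. It rose 4.39-fold (2.13 ± 0.35 SE, adjusted p = 3.28e-05). The creatine transporter Slc6a8 rose 1.899-fold (adjusted p = 0.00104), Ckb and Ckmt2 by 1.22 and 1.06 on the log2 scale, and Ckm 1.52-fold (adjusted p = 0.00861); the Ckm call is lost without the libraries with Alb above 16 CPM (adjusted p = 0.0504) and with the mitochondrial share as a covariate, where its log2 fold change was 0.15 (adjusted p = 0.549). Gatm, the first enzyme, did not pass.

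Fibrillar collagens form the tensile fibres of the muscle's connective tissue. Of 10 tested 8 rose, 0 fell and 2 did not pass (Col11a1 and Col24a1); the median log2 fold change was 1.25, each fit without 1 library gave 8, and the mitochondrial share as a covariate gave 6. Col1a1 (ENSMUSG00000001506, chr11:94936224-94953042) stood at 12.01, 9.83, 9.75 and 5.68 CPM in HU_M and at 26.1, 46.9, 112 and 64.6 CPM in RL7_M. The reloaded libraries were spread widely and all lay above the unloaded ones, a 6.704-fold rise (2.75 ± 0.58 SE, adjusted p = 0.0007); AMB_W was at 51.5 ± 12 CPM. Col3a1 (ENSMUSG00000026043, chr1:45311538-45349706) was at 19.7, 17.7, 14.6 and 11.1 CPM and 56.2, 89.02, 119.5 and 128 CPM. It rose 6.23-fold (2.64 ± 0.45 SE, adjusted p = 7.58e-05). Col1a2 rose 3.75-fold and Col5a1 2.68-fold (adjusted p = 0.000432 and 0.000381).

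**Figure D4:**
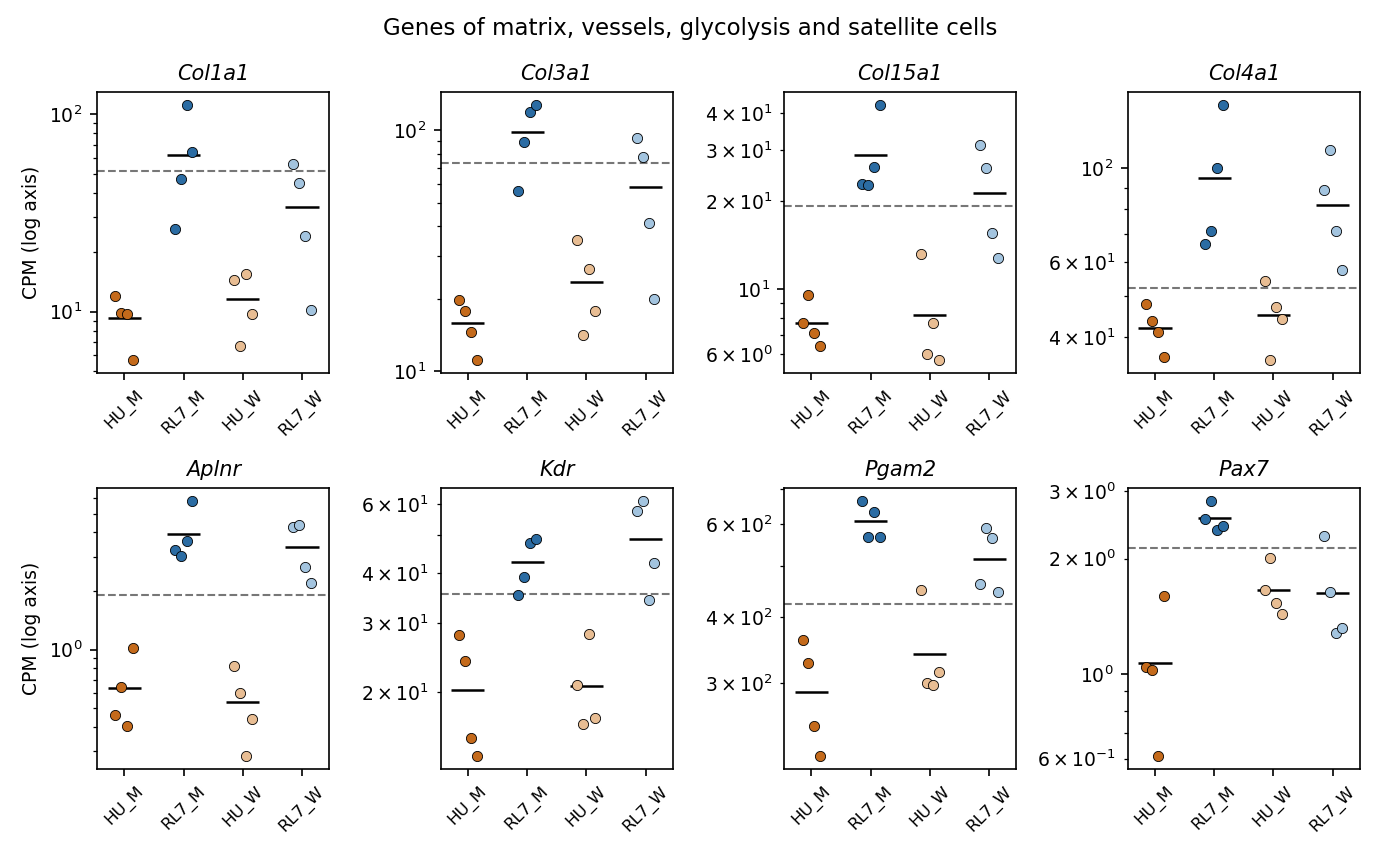
Each point is 1 library, bars are means of 4 and the dashed line is the AMB_W mean, on a log axis of CPM, for unloaded (HU) and 7 d reloaded (RL7) mice on metformin (M) or water (W). The RL7_M libraries lie above the HU_M libraries in all 8 genes, as they do for 15.3% of all genes tested. The water groups of Pax7 have nearly the same mean, 1.66 CPM in HU_W and 1.63 CPM in RL7_W.

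Among other interstitial matrix genes 11 of 24 rose and 2 fell (median 0.80). Col6a2, a chain of the beaded-filament collagen VI around the fibres, was at 19.8, 13.7, 15.3 and 15.3 CPM in HU_M and 38.8, 45.7, 57.7 and 68.8 CPM in RL7_M. It rose 3.29-fold (adjusted p = 3.43e-05), and Col6a3 rose 2.97-fold (adjusted p = 5.67e-05). Col15a1, a collagen of capillary and fibre surfaces, was at 7.68, 9.58, 7.06 and 6.39 CPM and 23.01, 22.8, 26.3 and 42.8 CPM. It rose 3.76-fold (adjusted p = 7.65e-05). Fn1, Fbn1, Sparc and Tnxb rose too. Ccn2, a matricellular target of YAP and TGF-beta signalling, was at 36.1, 17.9, 34.6 and 26.9 CPM and 4.27, 9.86, 15.5 and 17.8 CPM. It fell 2.43-fold (adjusted p = 0.00144) with HU_M 2 and RL7_M 4 nearly meeting, and the call is lost without the libraries with Alb above 16 CPM (adjusted p = 0.0812).

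In the basement membrane 11 of 16 genes rose and 0 fell (median 0.69; 8 to 11 without 1 library). Col4a1, the main chain of that sheet, was at 47.8, 43.6, 41.1 and 35.97 CPM in HU_M and 66.4, 71.2, 100.1 and 141 CPM in RL7_M. It rose 2.25-fold (adjusted p = 0.00057), with RL7_M 4 the highest, and its neighbour Col4a2 rose 1.897-fold (adjusted p = 0.000941). The linker Nid2 rose 2.28-fold (adjusted p = 0.000169), as did perlecan (Hspg2), agrin (Agrn) and laminins Lama4, Lama5, Lamb1 and Lamb2, while Lama2 and Lamc1 did not pass. Enzymes that process matrix gave 12 rising and 1 falling gene of 25, and 8 rising without RL7_M 4. Serpinh1, the collagen chaperone HSP47, was at 8.37, 7.599, 5.89 and 6.57 CPM and 14.2, 15.4, 23.7 and 29.9 CPM. It rose 2.93-fold (adjusted p = 0.000108). The membrane-anchored proteases Mmp14 and Mmp15 rose 2.09-fold and 2.64-fold (adjusted p = 0.000809 and 4.67e-05), and the crosslinking enzyme Lox fell 1.74-fold (adjusted p = 0.0214), a call lost without HU_M 3, RL7_M 1 or RL7_M 2 in turn (adjusted p up to 0.136).

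Markers of fibroblasts and tendon cells give the cell side of the matrix. Of 15 markers of fibro-adipogenic progenitors and fibroblasts 5 rose and 1 fell (Dcn), 2 rose without RL7_M 4, and Pdgfra, the defining receptor, did not pass; their summed level ran from 761 to 862 CPM in HU_M and 816 to 999 CPM in RL7_M. Of 10 tendon markers 1 rose, and their sum ran from 148 to 189.7 CPM in HU_M and from 96.5 to 429 CPM in RL7_M, highest in RL7_M 3, which was also the highest library for Col1a1. Without RL7_M 3 the collagen list still gave 8 rising genes of 10.

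Among vascular genes the largest rise was that of a receptor. Aplnr (ENSMUSG00000044338, chr2:85136225-85139923), the apelin receptor of growing vessels, was at 0.462, 0.639, 0.406 and 1.02 CPM in HU_M and 3.26, 3.03, 3.63 and 5.82 CPM in RL7_M. Its levels were low, all reloaded libraries were higher, and the rise was 6.09-fold (2.61 ± 0.42 SE, adjusted p = 2.08e-05). Kdr, the main signalling receptor for VEGF, was at 27.9, 24.1, 15.3 and 13.8 CPM and 35.3, 39.1, 47.9 and 48.8 CPM. It rose 2.11-fold (adjusted p = 0.00118). The decoy receptor Flt1 was at 106, 97, 94.1 and 78.96 CPM and 60.1, 59.9, 66.1 and 80.8 CPM. It fell 1.41-fold (adjusted p = 0.00457), a call lost without the libraries with Alb above 16 CPM (adjusted p = 0.127). Of 21 genes of apelin and VEGF signalling 7 rose and 2 fell, while the ligands Vegfa and Apln did not pass. Of 14 endothelial markers 8 rose, among them the tight junction gene Cldn5 (2.01-fold, adjusted p = 0.00137), and 1 fell; 3 rose without RL7_M 4. Pecam1, Esam, Emcn, Erg and Robo4 did not pass, and the summed level of the list was 299 to 350.1 CPM in HU_M and 325 to 496 CPM in RL7_M.

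Satellite cells are the stem cells of muscle. Pax7 (ENSMUSG00000028736, chr4:139737062-139833528), their defining transcription factor, was at 1.04, 1.02, 0.6096 and 1.599 CPM in HU_M and 2.54, 2.83, 2.38 and 2.44 CPM in RL7_M. The reloaded libraries were closely grouped above all unloaded ones, a 2.36-fold rise (1.24 ± 0.29 SE, adjusted p = 0.00141), with AMB_W at 2.13 ± 0.466 CPM and RL14_M at 1.33 ± 0.326 CPM. Myod1, which commits these cells to the muscle lineage, was at 6.699, 6.897, 4.52 and 6.31 CPM and 11.9, 12.5, 11.9 and 7.63 CPM. It rose 1.803-fold (adjusted p = 0.0221), a call lost without HU_M 3, RL7_M 2 or RL7_M 3 in turn (adjusted p up to 0.0787) and without the libraries with Alb above 16 CPM (adjusted p = 0.18). Myog, the differentiation factor, was at 2.48, 2.81, 3.81 and 1.24 CPM and 2.11, 1.77, 2.76 and 2.84 CPM. Its groups overlapped and it did not pass (adjusted p = 0.854). Myf6, the myogenic factor of mature fibres, fell 2.07-fold (adjusted p = 0.000229), and Mef2c fell 1.54-fold (adjusted p = 0.00243). Of 18 satellite cell and myogenic genes 6 rose and 2 fell. With the mitochondrial share as a covariate the Pax7 call is lost (adjusted p = 0.0726).

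The myosin heavy chains define the fibre types. Myh4 was at 54720.0, 64255, 60814 and 51256 CPM in HU_M and 50774, 42375, 40387 and 39550.0 CPM in RL7_M. All reloaded values were below the unloaded ones and the test missed the threshold (adjusted p = 0.0505). Myh1, of IIX fibres, Myh2, of IIA fibres, and Myh7, of slow fibres, overlapped between groups, with adjusted p of 0.322, 0.631 and 0.782. Of 14 fast fibre genes 2 rose (Pvalb and Casq1) and 2 fell (Tnnt3 and Tnni2), a share close to that of all genes (29.6%), and of 14 slow fibre genes 1 rose (Myl6b) and 1 fell (Sln). Sln, the calcium pump regulator sarcolipin, was at 6.58, 5.88, 10.5 and 13.8 CPM and 2.301, 4.05, 2.003 and 2.21 CPM. It fell 3.496-fold (adjusted p = 0.0305), a call lost in 5 of the 8 fits without 1 library (without HU_M 3, HU_M 4, RL7_M 1, RL7_M 3 or RL7_M 4). The falling fast fibre count was 0 without HU_M 2, RL7_M 3 or RL7_M 4.

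At the neuromuscular junction 4 of 18 genes rose and 6 fell. Chrnb1, the acetylcholine receptor beta subunit, was at 49.95, 39.3, 52.02 and 65.4 CPM in HU_M and 24.6, 29.4, 22.95 and 16.1 CPM in RL7_M. It fell 2.22-fold (adjusted p = 0.000302), together with the alpha subunit Chrna1 and the receptor kinase Musk. Ache, which breaks acetylcholine down, was at 10.2, 14.6, 9.96 and 12.8 CPM and 26.4, 20.6, 26.04 and 22.3 CPM. It rose 2.01-fold (adjusted p = 0.00684), and the deacetylase Hdac9 rose 1.99-fold (adjusted p = 0.00123). Among 19 stretch and load responsive sarcomere genes 6 rose and 2 fell, with 3 rising without HU_M 3 or RL7_M 4. Hspb1, a small heat shock protein of the Z-disc, was at 33.2, 27.4, 30.9 and 34.7 CPM and 63.5, 62.6, 61.1 and 114 CPM. It rose 2.38-fold (adjusted p = 0.000119), highest in RL7_M 4. Flnc rose 1.79-fold (adjusted p = 0.00466; 0.0525 without RL7_M 4), Nexn fell 2.74-fold (adjusted p = 0.00859), and Ankrd1, Ankrd2, Csrp3 and Xirp1 did not pass.

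The translation machinery gave calls in both directions, as did all genes tested (15.4% rising and 14.2% falling). Of 27 cytosolic ribosomal protein genes 8 rose and 4 fell, and 1 fell without HU_M 4 or RL7_M 3. Rps2 was at 145, 131, 134 and 128 CPM in HU_M and 229, 233, 223 and 204 CPM in RL7_M. It rose 1.65-fold (adjusted p = 0.000377). Of 24 genes of ribosome biogenesis and translation factors 3 rose and 6 fell. The nucleolar proteins Npm1 and Ncl fell 2.26-fold and 2.04-fold (adjusted p = 0.000916 and 0.00112). Eif3a, a scaffold of the initiation factor eIF3, was at 241, 289, 272 and 264 CPM and 153, 129.6, 132 and 65.3 CPM. It fell 2.22-fold (adjusted p = 0.000155), lowest in RL7_M 4. With the mitochondrial share as a covariate 0 ribosomal protein genes passed. Cish, a feedback inhibitor of STAT5 signalling, was at 2.77, 1.66, 2.18 and 1.24 CPM and 11.3, 3.03, 6.06 and 29.7 CPM. The reloaded libraries were all higher but spread widely, the rise was 6.42-fold (adjusted p = 0.0067), and the call is lost without RL7_M 4 (adjusted p = 0.086). On the rising side size alone also ranked Cited4, a transcriptional coactivator linked to exercise (2.52 ± 0.58 in log2, SE), and Lrrc38, a potassium channel subunit (2.04 ± 0.33).

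Some lists owed their calls to single libraries. Fasn, the fatty acid synthase gene, was at 15.01, 15.1, 19.8 and 21.1 CPM in HU_M and 60.9, 40.6, 25.1 and 1082 CPM in RL7_M. RL7_M 4 stood far above the other 3 reloaded libraries; the test gave a 16.98-fold rise (adjusted p = 0.000554), and without RL7_M 4 the log2 fold change was 1.22 (adjusted p = 0.147). Adipoq, the adipocyte hormone gene, was at 0.693, 3.83, 1.98 and 1.91 CPM and 4.51, 3.79, 3.14 and 72.4 CPM. Its call (adjusted p = 0.00547) is lost without RL7_M 4 (adjusted p = 0.478), and so are those of Plin1 and Acly. The 13 adipocyte markers gave 10 rising genes and 0 without RL7_M 4, and the 19 genes of fatty acid synthesis and the pentose phosphate path gave 15 and 3. Insig1, a feedback sensor of sterol synthesis, was at 6.81, 7.92, 6.91 and 5.68 CPM and 12.2, 11.9, 8.66 and 19.1 CPM. It rose 1.91-fold (adjusted p = 0.000334) and kept its call in each fit without 1 library. Of 16 liver transcripts 3 rose (Trf, Alb and Cyp2e1). The summed liver list was 11.4 to 31.9 CPM in HU_M and 66.1, 255, 21.9 and 322 CPM in RL7_M, and the call of Alb is lost in 5 of the 8 fits without 1 library.

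Blood and immune transcripts were also uneven. Hbb-bs, a globin gene of red cells, was at 19.1, 7.85, 76.3 and 15.6 CPM in HU_M and 1.63, 2.63, 3.898 and 9.12 CPM in RL7_M. HU_M 3 was the highest, HU_M 2 and RL7_M 4 overlapped, and the fall was 6.84-fold (adjusted p = 0.00059). Of 9 red blood cell transcripts 8 fell and 0 rose, and 2 fell without HU_M 3 or without the libraries with Alb above 16 CPM. Of 20 macrophage markers 1 rose (Cx3cr1) and 1 fell (Lyve1). Without those Alb libraries 8 rose and 0 fell. Their summed level was 99.4 to 179.6 CPM in HU_M and 84.3 to 199 CPM in RL7_M, with no separation. Of 11 smooth muscle and pericyte markers 3 rose and 1 fell.

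On plain water the same interval gave fewer calls in edgeR's quasi-likelihood test: 813 of 16668 genes (4.88%), 329 rising and 484 falling (2.9%). That count was 402 without HU_W 2, 408 without RL7_W 2, 231 without the libraries with Alb above 16 CPM and 2743 by limma voom. The Alb limit takes both HU_W 1 and HU_W 2 out of the 4 libraries of HU_W, so the smaller group and Alb cannot be told apart there. Of the water calls, 223 of the rising (67.8%) and 389 of the falling genes (80.4%) were also called under metformin in the same direction, which is 8.68% of the metformin-rising and 16.5% of the metformin-falling genes, and 1 was called in the opposite direction. Of the 4930 metformin calls 92.1% had the same sign on water, against 72.9% of all genes. The genes that rose under metformin had a median log2 fold change of 0.77 there and 0.33 on water, and those that fell -0.65 and -0.28. These medians are for genes chosen on the metformin values and so favour them. Across genes Spearman's rho between the log2 fold changes was 0.55, genes being no independent replicates. The 2 contrasts share no library.

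A direct test of the difference between the drinks, the interaction term of the same model, called 5 genes (0.03%), all higher under metformin, and 1634 (9.8%) at an unadjusted p under 0.05. DESeq2 called 30 and limma voom 23, and 10 of the 16 fits without 1 library called 3. In simulated data the edgeR interaction test called 7 genes that had no placed difference. That simulation placed true differences between the drinks in other genes, so its 7 cannot be set against the 5 calls here. None of the 5 belongs to the gene lists. Foxo1 was at 201, 175, 147 and 127 CPM in HU_W and 30.5, 24.4, 26.3 and 37.8 CPM in RL7_W. Its log2 fold change on water, -2.45 ± 0.21 (SE), differed from that under metformin by -0.04 ± 0.29. Ddit4 was at 92.01, 77.7, 46.1 and 34.6 CPM and 2.03, 2.501, 2.71 and 3.86 CPM on water. It fell there by 4.49 in log2, a difference of 0.44 ± 0.66 between the drinks. Glucocorticoid response genes gave 12 falling of 19 on water. Fibrillar collagens had a median of 0.69 on water, where 0 of 10 were called by edgeR and 4 had an unadjusted p under 0.05; Col1a1 was at 14.5, 6.67, 15.5 and 9.69 CPM in HU_W and 56.1, 44.7, 24.1 and 10.2 CPM in RL7_W. The water libraries overlapped, and the difference between the drinks, 1.2 ± 0.78 in log2 (SE), did not pass (adjusted p 0.575). Pax7 was at 1.65, 2.01, 1.53 and 1.43 CPM and 2.28, 1.63, 1.28 and 1.32 CPM on water. Its water groups overlapped (-0.02 ± 0.28), and the difference of 1.26 ± 0.40 had an unadjusted p of 0.00306 and an adjusted p of 0.443. Fbxo32 and Pdk4 differed between the drinks by -0.87 ± 0.32 and -1.44 ± 0.58 (adjusted p 0.464 and 0.468), and Aplnr and Cldn5 by -0.03 ± 0.57 and -0.01 ± 0.33.

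**Figure D5:**
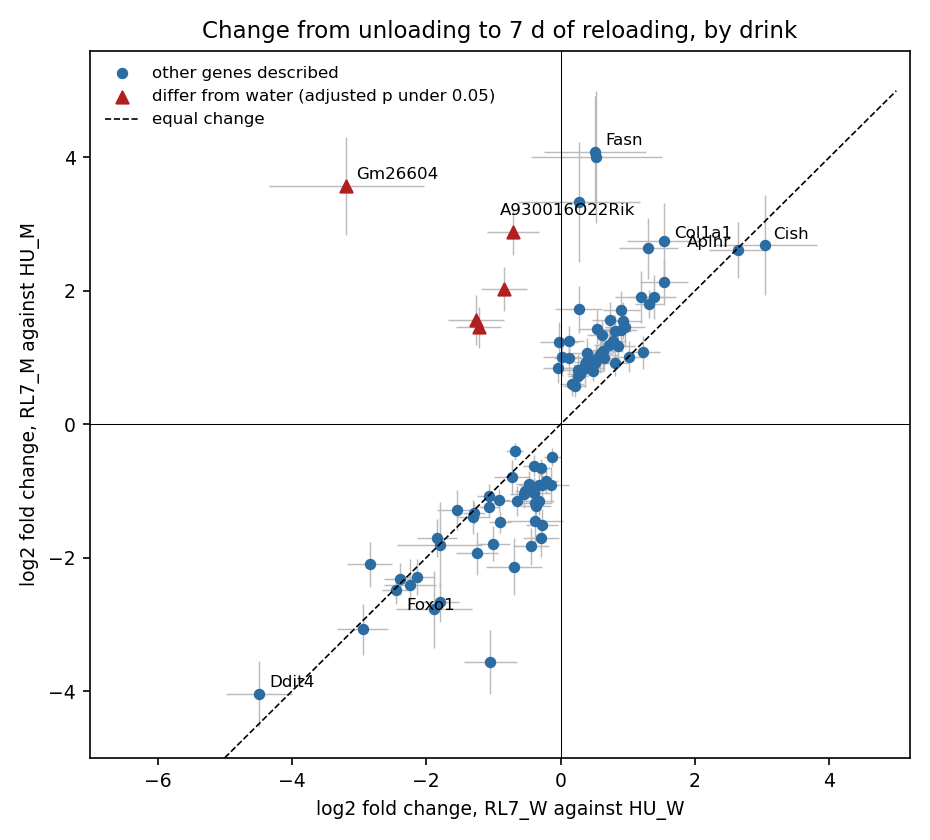
Each point is 1 changed gene named here, with its log2 fold change from unloading to 7 d of reloading on water (horizontal) and under metformin (vertical) and bars of 1 SE; Alb is left out. Ddit4 and Foxo1 lie near the dashed line of equal values, and the 5 triangles are the genes whose change differed between the drinks.

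The 5 genes that differed between the drinks lie on the strand opposite a far more abundant muscle gene. They are A930016O22Rik beside Ckm (chr7:19417466-19421417), Rabep2 beside the calcium pump gene Atp2a1 (chr7:126428759-126449245), A630019I02Rik beside Cmya5 (chr13:93094833-93098968), Gm26604 beside the calcium release channel gene Ryr1 (chr7:29071603-29081142), and Ube2c beside the troponin gene Tnnc2 (chr2:164769898-164778822), all on GRCm38. A930016O22Rik was at 2.19, 1.21, 1.88 and 1.55 CPM in HU_M and 11.1, 9.86, 17.5 and 12.2 CPM in RL7_M. It rose 7.38-fold (adjusted p = 1.22e-07), had a log2 fold change of -0.71 ± 0.39 on water, and differed between the drinks by 3.59 ± 0.52 (SE, adjusted p = 0.000234). Counted per 10000 counts of Ckm it ran from 1.79 to 3.55 in HU_M, 10.2 to 19.5 in RL7_M, 2.03 to 2.86 in HU_W and 0.906 to 1.85 in RL7_W. Rabep2 per 10000 counts of Atp2a1 ran from 2.48 to 4.10 in HU_M and from 9.43 to 17.7 in RL7_M. For Ube2c per 10000 counts of Tnnc2 the ranges were 10.1 to 18.02 and 42.2 to 84.4. In RL7_L against HU_L the 5 genes, in the order named, had log2 fold changes of 2.81, 2.02, 1.49, 2.33 and 1.68. All passed edgeR's quasi-likelihood test there (adjusted p 0.00562 or lower). On both agents A930016O22Rik, Gm26604 and Ube2c passed (2.05, 2.94 and 1.89), and Rabep2 and A630019I02Rik did not (0.99 and 0.75). A930016O22Rik per 10000 counts of Ckm ran from 2.69 to 3.87 in HU_L and from 12.6 to 18.3 in RL7_L. Of 139 tested genes with a partner over 100 times more abundant on the other strand 33 rose (23.7%) and 4 fell (2.88%), with a median log2 fold change of 0.35, against 0.05 for the other 16529 genes. Whether the counting used strand is not stated in the labels, so these counts cannot be told apart from reads of the abundant partner.

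Counts of calls differed between the other drinks. RL7_L against HU_L called 4771 genes (28.6%) and RL7_ML against HU_ML 985 (5.91%), 449 rising (2.69%) and 536 falling (3.22%). The edgeR test of the difference from metformin called 0 genes for leucine and 0 for the combination (906 genes, 5.44%, and 1087 genes, 6.52%, at an unadjusted p under 0.05; no other tool was run). n-R5-8s1 ran from 14.3 to 32.8 CPM in HU_L and from 0.533 to 1.14 CPM in RL7_L, and from 2.07 to 8.82 CPM in HU_ML and 0.591 to 3.28 CPM in RL7_ML. In RL14_M it was at 11.6 to 23.04 CPM. After 14 d on metformin Foxo1 averaged 37.9 ± 7.72 CPM, Ddit4 3.08 ± 1.51 CPM, Fkbp5 24.3 ± 8.203 CPM, Col1a1 47.4 ± 29.3 CPM, Pgam2 427 ± 61.7 CPM and Aplnr 2.99 ± 1.11 CPM (SD, n = 4); these levels were not tested against RL7_M.

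Several named genes share part of their span with a gene on the other strand, among them Foxo1, Fbxo32, Cebpd, Jun, Slc25a25, Dbp, Nr1d1, Bhlhe40, Gys1, Cox6c, mt-Nd5, Esrra, Ckm, Col5a1, Col15a1, Col4a1, Col4a2, Nid2, Ccn2, Lox, Myh1, Myh2, Myh7, Ache, Rps2 and Cish, and their counts are uncertain to that extent.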

How the data were processed

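Total RNA libraries of gastrocnemius were analysed from 1 deposited table, which holds raw counts per Ensembl gene for 55487 genes in 52 libraries, with no normalization. Per the submitters' processing notes, reads were handled with STAR 2.7.3a, featureCounts 1.6.3 and DESeq2 1.30.0 on GRCm38. Whether counting used strand, and which annotation release it used, is not given in the sources used here. Groups and replicate numbers were taken from the sample titles. Symbols and positions came from GENCODE vM21 (55227 identifiers matched) and promoters from RefSeq.

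The tests used edgeR 4.0.16 under R 4.3.3: filterByExpr (minimum count 10), TMM factors, and 1 robust quasi-likelihood model of 13 group means over all 52 libraries (39 residual degrees of freedom), with Benjamini-Hochberg adjustment over 16668 genes and a threshold of 0.05. CPM values are TMM-scaled, and the SE of a log2 fold change comes from the F statistic. The median SE was 0.23, and totals over all libraries ran from 15605044 to 32492548 counts. In data simulated for RL7_M against HU_M over 16668 genes, changes of 1.5, 2 and 4-fold were placed in 67, 67 and 66 genes. Of these 37.3%, 76.1% and 95.5% were recovered, with 8 false calls among 147. The interaction test gave 7 false calls there. The placed changes lay in RL7_M alone, so they were differences between the drinks as well. How many of them the interaction test called was not recorded. Genes of low count carried no placed change, and no library-wide shift was simulated. The figures therefore do not cover a contrast in which library-wide measures move. The 12 pairs of replicates of HU_M and RL7_M differed beyond sampling noise (lowest chi-square per degree of freedom 9.39).

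Named genes came from a rule: the 12 largest rises and 12 largest falls whose mean log2 CPM is 1 or more, whose libraries do not overlap and whose name is no clone name; up to 3 rising and 3 falling changed members of each list by p; the 6 smallest interaction p on each side; and a core set. For room the text leaves out many genes that the rule names, and it names further list members as called or not called. The members, lists and the limit of 16 CPM for Alb were chosen with earlier results of these data known. Alternatives were RLE factors, no low-count filter, DESeq2 1.42.0, limma 3.58.1 voom, a fit of only the compared groups without and with a replicate block, each library left out, no libraries with Alb above 16 CPM, and covariates. The mitochondrial covariate, library sizes without mitochondrial genes, and the tests against leucine and the combination were chosen after seeing the data.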

Additional observations from a re-analysis of the deposited data

Results flagged for a closer look

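In 18 of 214 groups of 4 values checked, 1 library stood apart from the other 3 by Dixon's criterion of gap over range, which chance alone meets in about 1 of 20 groups. RL7_M 4 accounts for 8 of them. It was highest for Fasn (1082 CPM), Acly (100.5 CPM), Adipoq (72.4 CPM), Plin1 (127 CPM), Hspb1 (114 CPM), Ddit4 (4.15 CPM) and the adipocyte marker mean (5.93 log2 CPM), and lowest for Myod1 (7.63 CPM). HU_M 3 was highest for Arrdc3 (355 CPM), Jun (260.2 CPM) and Hbb-bs (76.3 CPM). RL7_M 3 was highest for Slc25a25 (31.8 CPM) and Cyc1 (86.1 CPM) and lowest for Ddit4l (113 CPM). RL7_M 2 was highest for Sln (4.05 CPM) and Alb (124 CPM), HU_M 4 was highest for Psmc6 (131 CPM), and HU_M 1 was lowest for Plin1 (0.635 CPM).

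The change from unloading to 7 d of reloading differed between metformin and water for 5 genes by edgeR's interaction test, each of which lies opposite a far more abundant gene. The log2 fold change under metformin exceeded that on water by 3.59 for A930016O22Rik (adjusted p = 0.000234), 2.87 for Rabep2 (adjusted p = 0.0024), 2.67 for A630019I02Rik (adjusted p = 0.0024), 6.76 for Gm26604 (adjusted p = 0.0321) and 2.82 for Ube2c (adjusted p = 0.0321). All 4 RL7_M libraries lay above all 4 HU_M libraries for each of them. On leucine all 5 rose as well. Gm26604 lay near the floor of counts, so its large difference (SE 1.36) is imprecise. It was at 0.173, 0.128, 0 and 0.044 CPM in HU_M and 1.10, 0.607, 2.06 and 0.406 CPM in RL7_M. On water it was at 0.386, 0.054, 0.226 and 0 CPM in HU_W and 0, 0, 0 and 0.047 CPM in RL7_W.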

How the results depend on the processing

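The count of genes changed between RL7_M and HU_M (4930) was 4958 with RLE factors, 3691 with no filter on low counts, 5233 with DESeq2, 5287 with limma voom, 3941 with only the 8 libraries, 4546 without the libraries with Alb above 16 CPM, 3542 with adipocyte markers as a covariate, 4950 with mitochondrial genes left out of library sizes, and 3536 to 4776 without 1 library (lowest without RL7_M 4). It moved further to 47 (11 rising, 36 falling) with 5.8S rRNA as a covariate and to 1409 (648 rising, 761 falling) with the mitochondrial share as a covariate, chosen after seeing the data. Neither measure overlaps between HU_M and RL7_M. RLE factors gave 2333 rising and 2625 falling genes.

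The count on water (813) was 458 with no filter on low counts, 2743 with limma voom, 1928 with only the groups compared, 402 to 799 without 1 library, 231 without the libraries with Alb above 16 CPM (HU_W 1 and HU_W 2 among them) and 471 with 5.8S as a covariate. The number of genes that differed between the drinks (5) was 30 with DESeq2, 23 with limma voom and 3 to 7 without 1 library. The causes were not tested.

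Deviations of same-numbered libraries of HU_M and RL7_M correlated at -0.08, -0.03, 0.02 and -0.13. Those of differently numbered libraries ran from -0.19 to 0.20. With so few values, whether the numbers pair the libraries cannot be settled. With a replicate block the count was 2993 (1724 rising, 1269 falling), that on water 1464 and that of the interaction 18.

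Of the 97 changed genes followed singly, the same call was found for 97 with RLE factors, 97 with DESeq2, 92 with limma voom, 93 with no filter, 89 with only the 8 libraries and 86 with the replicate block, and 85 kept it in each fit without 1 library. Among the genes followed singly, the signs that reversed belong to genes with no call: Fos (0.28 without the libraries with Alb above 16 CPM), Prkaa1 (-0.10 to 0.014 without 1 library, 0.083 with 5.8S and 0.077 with the mitochondrial share as a covariate), Prkaa2 (0.012 with limma voom), Myog (-0.36 to 0.14 without 1 library, 0.12 without the Alb libraries), Myh1 (0.16 with the mitochondrial share) and Myh7 (-0.011 with limma voom).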

Other observations

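Calls were also counted by gene type. Of 13380 protein-coding genes 2416 rose and 1971 fell, while of 466 processed pseudogenes 15 rose and 53 fell, and of 437 lincRNAs 24 rose and 56 fell. Of 48 snoRNAs 1 rose and 7 fell, of 53 snRNAs 0 rose and 6 fell, and of 44 miRNA genes 8 rose and 3 fell. Over all genes tested 15.4% rose and 14.2% fell. The falling snoRNAs and snRNAs and the rising miRNA genes are near these shares. Rpph1, the RNA component of RNase P, averaged 73.4 CPM in HU_M and 383 CPM in RL7_M, a log2 fold change of 2.38 (adjusted p = 0.000226 by edgeR's quasi-likelihood test) against 1.14 on water.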
